A study of Mus musculus with 4 samples.

Results

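The circadian clock genes described here are Per1, Per2, Per3, Cry1, Cry2, Nr1d1, Nr1d2, Arntl, Clock and Dbp, 10 of the 12700 genes of the deposited count table, chosen by symbol and matched through their Entrez identifiers. All 10 were in the table, and each had between 328 and 6193 reads in every library. RNA was measured in C57BL/6 mice of 9 months, Ids-ko (given as Ids-/- in the sample labels) or wild type (wt) littermates, in cerebral cortex (Cx) and in an area called M that holds midbrain, diencephalon (with hypothalamus, thalamus and striatum) and hippocampus. Ids codes for iduronate 2-sulfatase, the lysosomal enzyme missing in Hunter syndrome, and the Ids-ko mouse is its model. Which part of the gene is disrupted and the sex of the animals are not given in the sources used here. RNA of several animals was pooled, and 1 library was sequenced for each of the 4 conditions, CxH (cortex, Ids-ko), CxWT (cortex, wt), MH (M, Ids-ko) and MWT (M, wt). Reads on genes numbered between 16380080 (MWT) and 23475080 (CxH). With 1 library per condition there is no replicate error, so every comparison below is between libraries and not between conditions. By the methods of the study both areas were taken from every brain, so the Cx and M pools of a genotype may hold the same animals, but which animals entered each pool is not given in the sources used here. The animals were kept under controlled light, and the time of day at which the tissue was taken is not given in the sources used here.

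The clock of mammalian cells is a feedback loop of transcription. The activators ARNTL (also called BMAL1) and CLOCK bind E-box sequences and switch on the Per and Cry genes, whose proteins return to the nucleus and hold the activators back. The same activators switch on Nr1d1 and Nr1d2, which code for the nuclear receptors REV-ERB-alpha and REV-ERB-beta that repress Arntl, and Dbp, whose protein carries the rhythm to genes with D-box sequences. The transcripts of most of these genes rise and fall over the day, with Arntl out of phase with the Per genes. The master clock is the suprachiasmatic nucleus of the hypothalamus, which lies in the M area, while cortex and other regions hold clocks of their own. Per1 is in addition induced by neuronal activity and by glucocorticoids.

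Reads were divided by the aligned reads of each library to give RPM (reads per 1000000 aligned reads), and log2 ratios were taken between libraries, each with a standard error (SE) from counting only. A gene was called in a pair of libraries, by the test and thresholds of the study, when a Poisson likelihood ratio test passed 0.05 and its log2 ratio reached 0.7 in either direction. Such a call says that the reads of a pair of libraries differ, and no variation between animals enters it. Confidence intervals of RPM are exact Clopper-Pearson intervals at 95% and also cover counting error only. In bulk tissue, fewer cells of a type and less RNA per cell cannot be told apart.

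The labels of several libraries went against their content. Ids itself stood at 135.3 RPM in CxH and 155.3 in the library labelled MWT, against 353.7 in CxWT and 368.1 in the library labelled MH, so in M the knock-out label and the Ids reads point in opposite directions. Of 12 marker genes of midbrain and diencephalon, 10 were in the table, and their summed level was 16.8 RPM in CxH and 29.4 in MH, and 442.5 in CxWT and 391.7 in MWT. En1, a marker of midbrain neurons, had 1 read in CxH and 0 in MH, and 273 in CxWT and 126 in MWT. The 11 marker genes of cortical excitatory neurons summed to 1939 RPM in CxH and 1811 in MH, and to 361 in CxWT and 301 in MWT. The libraries labelled CxWT and MWT were therefore alike in these markers, as were those labelled CxH and MH. Whether the labels of the libraries called CxWT and MH were exchanged was not tested, and it would change what each labelled contrast compares. With these names exchanged, Ids in M would still be 353.7 RPM under the knock-out label and 155.3 in MWT. All libraries are named by their labels, none was regrouped, and the clock genes are given for all 6 pairs of libraries, 4 that differ in 1 label and 2 that differ in both.

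The promoters that follow are shown because they hold, or lack, the sequences through which the loop acts. They are RefSeq windows of the GRCm38.p6 build, later than the build of the reads, from 250 bases before to 50 bases after a transcription start, and 9 of the 10 genes matched such a window, with no entry for Per2. Capitals mark the E-box CACGTG in Per1 and Cry1 and the D-box TTATGTAA in Per3, and the windows of the paralogs Nr1d1 and Nr1d2 held none of the motifs searched. The windows are chr11:69098699-69098998 (plus strand) for Per1, chr10:85185005-85185304 (minus) for Cry1, chr4:151044616-151044915 (minus) for Per3, chr11:98775328-98775627 (minus) for Nr1d1 and chr14:18239057-18239356 (minus) for Nr1d2.
Per1: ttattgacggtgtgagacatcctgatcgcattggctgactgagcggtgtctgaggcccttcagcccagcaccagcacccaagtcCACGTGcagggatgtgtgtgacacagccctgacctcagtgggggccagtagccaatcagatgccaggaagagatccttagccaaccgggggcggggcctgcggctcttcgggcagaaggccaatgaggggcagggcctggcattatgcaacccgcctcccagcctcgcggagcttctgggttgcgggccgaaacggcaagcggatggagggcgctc
Cry1: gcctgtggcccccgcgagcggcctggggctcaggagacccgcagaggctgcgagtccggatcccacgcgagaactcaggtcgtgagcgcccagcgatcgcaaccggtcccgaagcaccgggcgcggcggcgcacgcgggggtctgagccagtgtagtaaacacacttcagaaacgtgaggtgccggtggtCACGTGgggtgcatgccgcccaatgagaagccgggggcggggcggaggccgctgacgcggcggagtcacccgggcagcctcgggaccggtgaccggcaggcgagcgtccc
Per3: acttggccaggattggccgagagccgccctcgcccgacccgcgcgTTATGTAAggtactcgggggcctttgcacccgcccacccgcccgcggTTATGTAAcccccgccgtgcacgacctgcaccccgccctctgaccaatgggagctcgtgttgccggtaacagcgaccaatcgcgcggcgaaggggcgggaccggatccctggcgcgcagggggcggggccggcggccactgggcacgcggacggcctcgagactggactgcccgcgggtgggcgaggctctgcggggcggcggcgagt
Nr1d1: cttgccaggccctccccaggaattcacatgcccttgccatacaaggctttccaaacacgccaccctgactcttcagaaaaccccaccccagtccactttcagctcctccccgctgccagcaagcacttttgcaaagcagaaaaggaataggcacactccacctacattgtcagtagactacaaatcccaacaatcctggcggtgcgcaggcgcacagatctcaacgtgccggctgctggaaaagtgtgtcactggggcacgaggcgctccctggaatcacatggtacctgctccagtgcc
Nr1d2: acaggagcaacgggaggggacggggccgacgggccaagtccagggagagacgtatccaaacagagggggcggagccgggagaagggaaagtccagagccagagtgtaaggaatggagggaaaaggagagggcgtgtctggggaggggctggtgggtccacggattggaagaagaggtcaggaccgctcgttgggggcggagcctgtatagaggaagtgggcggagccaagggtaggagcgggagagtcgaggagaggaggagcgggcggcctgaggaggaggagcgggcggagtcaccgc

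The E-box of Per1 began 166 bases before the start of transcription and that of Cry1 60 bases before it. The D-boxes of Per3 began 205 and 158 bases before the start. Motifs were searched on both strands in all 13 windows of the 9 genes, as the E-box CACGTG, the D-box TTATGTAA or TTACGTAA, the ROR element TAGGTCA or TGGGTCA, through which REV-ERB and ROR receptors act, and the cAMP response element TGACGTCA. Of the 13 windows, 2 (15.4%) held the E-box, against 7.15% of all 32851 RefSeq windows of this length. The D-box was in 1 window (Per3, 7.69%), against 1.06% of all windows, and a ROR element in 1 (Arntl, in the window of the more downstream of its 2 starts, 7.69%), against 6.45%. No window of the 9 genes held the cAMP response element, which 1.79% of all windows did. A match is a description of these letters only, and elements outside these windows were not searched.

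**Figure D1:**
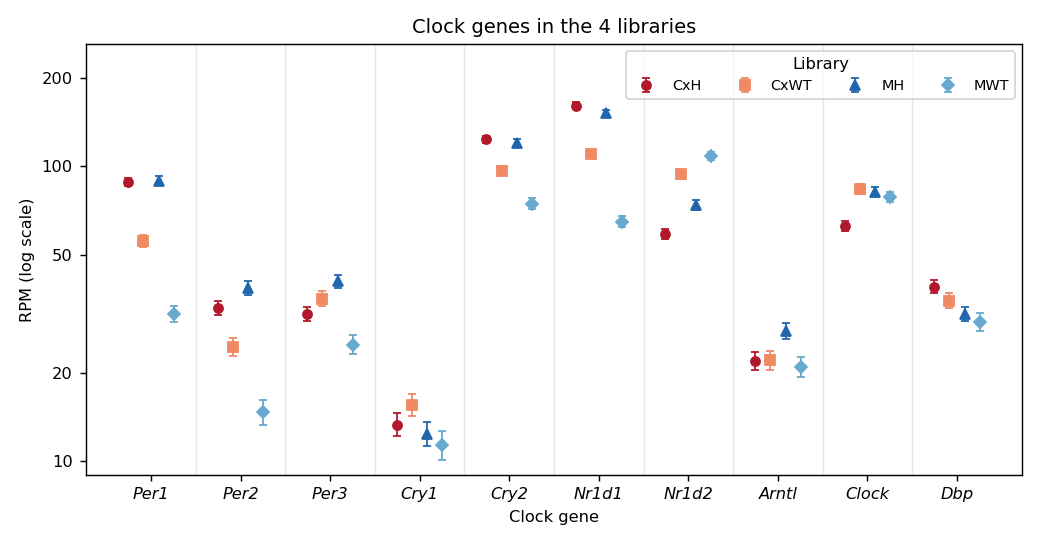
Level of the 10 clock genes in the 4 libraries, in RPM on a log axis, with 95% exact Clopper-Pearson intervals for counting error. The library labelled MWT is the lowest for 8 of the 10 genes, and for Nr1d2 it is the highest. For Cry1, Arntl and Dbp it lies within 2 SE of counting of the next library.

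Across the 4 libraries the clock genes fell into a group that differed widely (Per1, Per2 and Nr1d1), a group in between (Nr1d2, Cry2 and Per3) and a group that differed little (Cry1, Clock, Arntl and Dbp), as the plot of RPM by library shows. MWT had the lowest level of 8 of the 10 genes. The exceptions were Nr1d2, for which MWT was the highest library, and Clock, for which CxH was the lowest. With the column totals of the counts as scaling Arntl joined them, at a log2 ratio of -0.038 for CxH over MWT. With aligned reads, MWT lay within 2 SE of counting of the next library for Cry1, Arntl and Dbp. The share of all genes that were lowest in MWT was not computed. After the correction for GC content and length given below, MWT was again the lowest for 8 genes, but Clock was then among them, Dbp was highest in MWT, and Nr1d2 was highest in CxWT, by 0.012 over MWT. The highest library after the correction was MH for 7 genes, CxWT for 2, MWT for 1 and CxH for 0. Without the correction, the highest library was MH for 4 genes, CxH for 3, CxWT for 2 and MWT for 1. The highest level exceeded the lowest 2.83-fold for Per1, 2.64-fold for Per2 and 2.48-fold for Nr1d1, against 1.84-fold for Nr1d2, 1.65-fold for Cry2 and 1.64-fold for Per3. For Cry1, Clock, Arntl and Dbp the span was 1.37-fold, 1.34-fold, 1.32-fold and 1.31-fold. Among the 11010 genes that reached 100 reads in each library, the log2 span of Per1 stood at percentile 95.1, that of Per2 at 93.8 and that of Nr1d1 at 92.3. Dbp, Arntl, Clock and Cry1 stood at percentiles 25.7, 26.9, 29.2 and 33.6, below the median span.

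In level per transcript length (RPKM, RPM divided by length in kilobases), Nr1d1 was the most abundant clock transcript, with a median over the libraries of 48.0 RPKM. Cry2 followed with 27.2, and Dbp, Nr1d2 and Per1 with 18.6, 18.0 and 15.5 RPKM. Clock (9.30 RPKM), Arntl (7.50), Per3 (5.60), Per2 (4.92) and Cry1 (4.27) were the least abundant by this measure. The order changed between libraries, since Nr1d1 led in each of the 4 but Nr1d2, at 23.3 RPKM in MWT against 23.9 for Nr1d1, came next to it only there. Lengths are those of the longest protein-coding transcript, and a library that uses another isoform would shift the value.

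The activators differed little between libraries, and neither was called in any of the 6 pairs. Gene positions here and below are those of GENCODE vM1 on NCBI37/mm9. Arntl (chr7:120350979-120457636, plus strand) had 843 reads (21.9 RPM) in CxH and 1031 (27.6) in MH, and 739 (22.0) in CxWT and 604 (20.9) in MWT. Only MH stood apart, and the other 3 libraries did not differ beyond 2 SE of counting from their neighbours in the order. The log2 ratio of Arntl was -0.0058 ± 0.073 for CxH over CxWT and 0.40 ± 0.074 for MH over MWT. Clock (chr5:76639992-76733817, minus strand) had 62.7 RPM in CxH and 82.1 in MH, and 83.9 in CxWT and 78.8 in MWT. CxH was the low library here, by a log2 ratio of -0.42 ± 0.040 to CxWT and -0.39 ± 0.039 to MH, while CxWT and MH differed by -0.031 ± 0.038 (MH over CxWT). After the correction for GC content and length given below, CxH over CxWT was -0.093 and CxH over MH -0.095, and CxH over MWT went from -0.33 to 0.13, so that CxH was no longer the lowest.

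The Period genes code for the repressors that carry the clock through its daily delay, and Per1 and Per2 showed the widest differences. Per1 (chr11:68908719-68923462, plus strand) had 3413 reads in CxH and 3340 in MH, and 1881 in CxWT and 915 in MWT. In RPM this was 88.6 (95% interval 85.7 to 91.7) in CxH and 89.4 (86.4 to 92.5) in MH, and 55.95 (53.5 to 58.5) in CxWT and 31.6 (29.6 to 33.7) in MWT. CxH and MH had the same level within counting error, with a log2 ratio of -0.012 ± 0.035, while CxWT was lower than both and MWT lower again. The log2 ratio was 0.66 ± 0.041 for CxH over CxWT, below the threshold, and 1.50 ± 0.054 for MH over MWT, a 2.83-fold difference. Between the libraries labelled wt, Per1 was 1.77-fold higher in CxWT than in MWT (0.82 ± 0.058).

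Per2 (chr1:93312561-93355907, minus strand) followed the same order, with 1445 reads (38.7 RPM) in MH, 1275 (33.1) in CxH, 819 (24.4) in CxWT and 424 (14.65) in MWT. All 4 libraries differed from their neighbours in this order by more than 2 SE. The log2 ratio was 0.44 ± 0.065 for CxH over CxWT and 1.40 ± 0.080 for MH over MWT, 0.73 ± 0.086 for CxWT over MWT and -0.22 ± 0.055 for CxH over MH. Per3 (chr4:150377761-150418774, minus strand), the Period gene that is least needed for rhythm, had 31.6 RPM in CxH and 40.8 in MH, and 35.6 in CxWT and 24.8 in MWT. Its pattern differed from that of the other Period genes in that CxH lay below CxWT (-0.17 ± 0.059). Per3 was just past the threshold for MH over MWT (0.72 ± 0.065, 1.64-fold) and in no other pair.

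Cry1 and Cry2 code for the cryptochromes, the partners of the PER proteins and the stronger repressors of the loop. Cry1 (chr10:84594447-84647799, minus strand) was the scarcest clock transcript in reads, with 513 (13.3 RPM) in CxH and 463 (12.4) in MH, and 521 (15.5) in CxWT and 328 (11.3) in MWT. Its log2 ratios ranged from -0.32 ± 0.092 (MH over CxWT) to 0.45 ± 0.10 (CxWT over MWT), with CxWT above CxH by more than 2 SE and the further steps from CxH to MH and from MH to MWT within 2 SE. Cry2 (chr2:92243803-92274200, minus strand) was much more abundant, with 4750 reads (123.4 RPM) in CxH and 4486 (120.1) in MH, and 3245 (96.5) in CxWT and 2161 (74.7) in MWT. CxH and MH differed by less than 2 SE in Cry2 (0.039 ± 0.030), and MWT was lowest. Cry2 lay on either side of the threshold in the pairs with MWT, at 0.72 ± 0.037 for CxH over MWT, which was called, and 0.69 ± 0.038 for MH over MWT, which was not.

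Nr1d1 and Nr1d2, the genes of the REV-ERB receptors, took opposite directions in all 6 pairs of libraries before the correction for GC content described further on. Nr1d1 (chr11:98629246-98636647, minus strand) had 6193 reads (160.8 RPM) in CxH and 5657 (151.4) in MH, and 3694 (109.9) in CxWT and 1881 (65.0) in MWT. Nr1d2 (chr14:19036568-19071641, minus strand) had 2273 reads (59.0 RPM) in CxH and 2760 (73.9) in MH, and 3155 (93.85) in CxWT and 3140 (108.5) in MWT. The order of the libraries was CxH, MH, CxWT and MWT from high to low for Nr1d1 and MWT, CxWT, MH and CxH for Nr1d2, its exact reverse, with every step beyond 2 SE for both genes. For MH over MWT the log2 ratio was 1.22 ± 0.038 for Nr1d1 and -0.55 ± 0.038 for Nr1d2, and for CxH over CxWT 0.55 ± 0.030 and -0.67 ± 0.040. The call was reached by Nr1d2 only for CxH over MWT, at -0.88 ± 0.040, where Nr1d1 stood at 1.31 ± 0.038.

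Reads of Nr1d1 need care because its exons overlap those of Thra, a thyroid hormone receptor gene on the opposite strand, by 263 of 3124 exonic bases. Thra had 507.4 RPM in CxH and 490.8 in MH, and 304.9 in CxWT and 217.7 in MWT, and its log2 ratio was 0.73 ± 0.018 for CxH over CxWT and 1.17 ± 0.021 for MH over MWT. Counts were limited to reads aligned to a single gene, and how reads in the shared bases were treated is not stated. The sources used here also do not say whether strand was used in counting, so the share of Thra reads in the Nr1d1 count was not tested. Dbp overlaps Sphk2 on the opposite strand by 491 of 2945 exonic bases, and Cry2 overlaps a long noncoding RNA by 295 of 6320. The other 7 clock genes overlapped no gene of the annotation.

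Dbp (chr7:52960458-52965525, plus strand), the output factor that is among the most strongly rhythmic transcripts of most tissues, hardly differed between the libraries. It had 1503 reads (39.0 RPM) in CxH and 1181 (31.6) in MH, and 1178 (35.0) in CxWT and 860 (29.7) in MWT. The log2 ratio was 0.16 ± 0.056 for CxH over CxWT, 0.089 ± 0.065 for MH over MWT and 0.39 ± 0.062 for CxH over MWT, its widest. MH and MWT did not differ beyond 2 SE. After the correction for GC content and length given below, the ratio was -0.20 for CxH over CxWT, -0.44 for MH over MWT and -0.40 for CxH over MWT. MWT was then the highest library for Dbp.

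**Figure D2:**
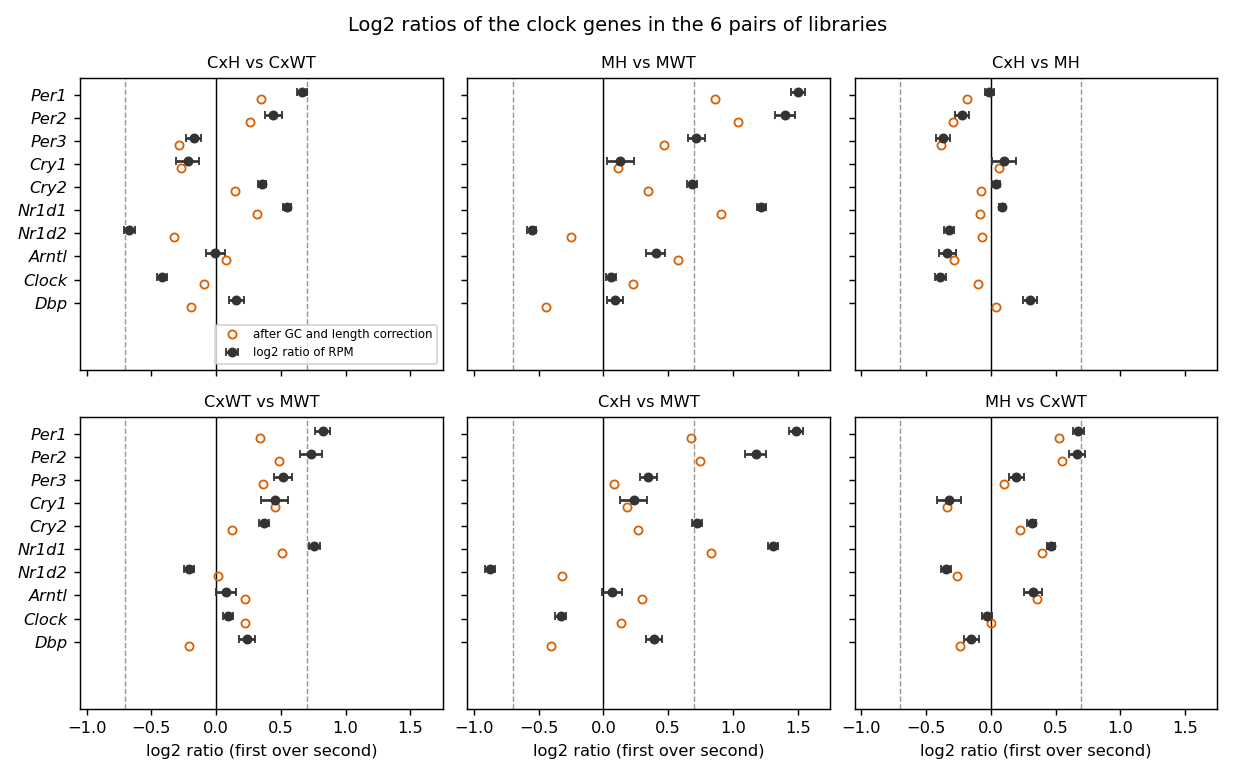
Log2 ratios of the 10 clock genes in the 6 pairs of libraries (first over second), with bars of 1 SE from counting, and in open circles the ratios after a correction for base composition (GC content) and length of the transcript. Dashed lines mark the threshold of 0.7 in either direction. Filled points pass it in the 3 pairs that hold MWT and in no other pair.

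For the pair that the labels give as Ids-ko against wt in cortex, CxH against CxWT, 0 of the 10 clock genes were called, where 20.9% of all genes were, 9.46% higher in CxH and 11.5% lower. The nearest to the threshold were Nr1d2 at -0.67 and Per1 at 0.66. By the markers above this pair also sets a library rich in cortical transcripts against one rich in midbrain transcripts, and the same holds for MH against MWT. In the pair labelled M, MH against MWT, 4 of 10 clock genes were called, all higher in MH (Per1, Per2, Per3 and Nr1d1), where 25.0% of all genes were called, 12.3% higher and 12.7% lower. The nearest genes below the threshold were Cry2 at 0.69 and Nr1d2 at -0.55. The study named the 4 called genes as up-regulated in M on these same libraries, and also Cry2, which was not called here. The count of called genes is therefore not independent evidence of a direction, and the Ids reads of MH exceeded those of MWT.

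For the pairs that the labels give as cortex against M, 0 of 10 clock genes were called between CxH and MH, where 3.50% of all genes were, 2.43% higher in CxH and 1.06% lower, and the widest ratios were -0.39 for Clock and -0.37 for Per3. By content CxH and MH were both rich in cortical markers and CxWT and MWT both rich in midbrain markers, while the libraries of each pair differed in Ids. Within the pair CxH and MH, 4 of the 10 midbrain and diencephalon markers were called lower in CxH (1.06% of all genes), the direction of the area labels, and between CxWT and MWT 2 were called higher in CxWT (5.43% of all genes), the opposite direction. Between CxWT and MWT, 3 of 10 were called, all higher in CxWT (Per1, Per2 and Nr1d1 at 0.76 ± 0.041), where 7.54% of all genes were called, 5.43% higher and 2.11% lower. Between CxH and MWT 5 of 10 were called, with Per1 (1.49), Nr1d1 (1.31), Per2 (1.18) and Cry2 (0.72) higher in CxH and Nr1d2 (-0.88) lower, where 30.7% of all genes were called, 15.6% higher and 15.1% lower. Between MH and CxWT 0 of 10 were called, where 15.3% of all genes were, 6.41% higher in MH and 8.89% lower, and the nearest to the threshold were Per1 at 0.68 ± 0.042 and Per2 at 0.67 ± 0.063.

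In all, 12 of the 60 ratios were called, and all 12 were in the 3 pairs that hold the library labelled MWT. Over all genes 17.1% of the ratios were called, and 61.4% of these calls were in these 3 pairs. The pairs share libraries, so these calls are not separate observations. With TMM factors or DESeq2 size factors in place of aligned reads, Per1 was called as well for CxH over CxWT and, with Per2, for MH over CxWT. Cry2 was then also called for MH over MWT (0.74 under TMM), and Per2 was no longer called for CxWT over MWT (0.685). Of the 10 genes, 6 were called at least once, and Cry1, Arntl, Clock and Dbp never. The share of all genes called at least once was not computed, so this count has no background beside it. The median log2 ratio of the 10 genes was 0.075 for CxH over CxWT, 0.54 for MH over MWT, -0.12 for CxH over MH, 0.41 for CxWT over MWT, 0.37 for CxH over MWT and 0.26 for MH over CxWT. The medians over all genes for the same pairs lay between -0.11 and 0.046. The summed level of the 10 genes was 633.6 RPM in CxH and 667.9 in MH, and 572.6 in CxWT and 459.9 in MWT.

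**Figure D3:**
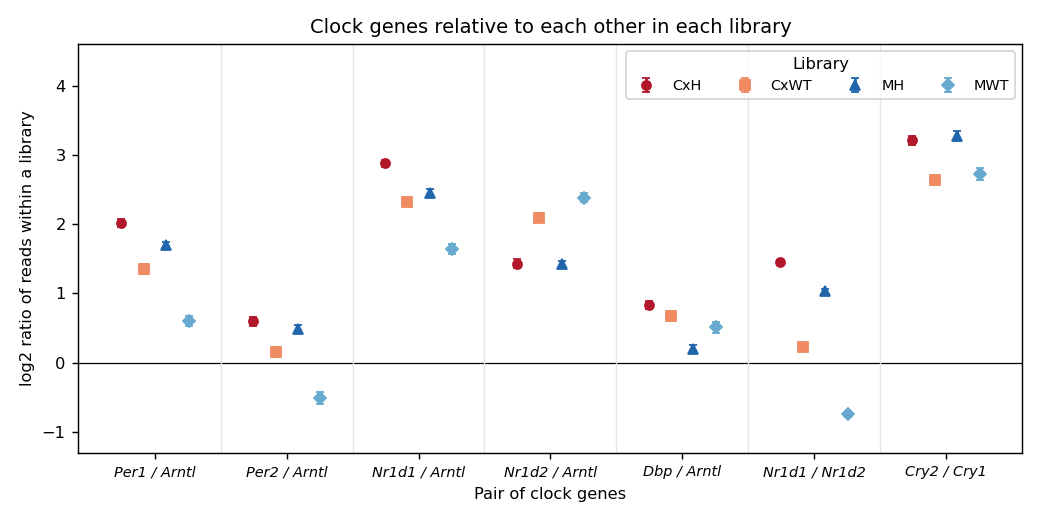
Log2 ratio of the reads of 2 clock genes within each library, which needs no scaling between libraries, with bars of 1 SE from counting. Per1, Per2 and Nr1d1 relative to Arntl are lowest in MWT, with CxH and MH within 2 SE of each other for Per2, and Nr1d1 relative to Nr1d2 is above 0 in 3 libraries and below 0 in MWT.

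The clock genes were also compared with each other inside each library, where the library total cancels out. For each read of Arntl there were 4.05 reads of Per1 in CxH and 3.24 in MH, and 2.54 in CxWT and 1.51 in MWT. For Per2 the ratio to Arntl was 1.51 in CxH and 1.40 in MH, and 1.11 in CxWT and 0.702 in MWT. For Nr1d1 it was 7.35 in CxH and 5.49 in MH, and 4.999 in CxWT and 3.11 in MWT. These targets of the activators thus stood lowest against Arntl in MWT. CxH was above MH for Per1 and Nr1d1 by more than 2 SE, but for Per2 by only 0.11 ± 0.087 on the log2 scale. Dbp, another target of the same activators, gave a different order, with 1.78 reads for each read of Arntl in CxH and 1.15 in MH, and 1.59 in CxWT and 1.42 in MWT, so that MH and not MWT was lowest. Per3 to Arntl ranged from 1.19 in MWT to 1.62 in CxWT. Among the ratios computed here that of Nr1d1 to Nr1d2 spanned the most, at 2.73 in CxH and 2.05 in MH, and 1.17 in CxWT and 0.599 in MWT, a 4.55-fold difference between CxH and MWT that came to 2.21-fold after the correction for GC content and length described below. Before the correction, Cry2 to Cry1 split the libraries into CxH and MH (9.26 and 9.69) and CxWT and MWT (6.23 and 6.59). Clock to Arntl did so as well, with 2.87 and 2.98 in CxH and MH and 3.82 and 3.77 in CxWT and MWT. After the correction this split was less even, with Clock to Arntl at -0.17 for CxH over CxWT and -0.16 for CxH over MWT, in place of -0.41 and -0.40 on the log2 scale, and at -0.35 for MH over MWT. The library total cancels in these ratios, but a difference in GC content between the genes does not.

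**Figure D4:**
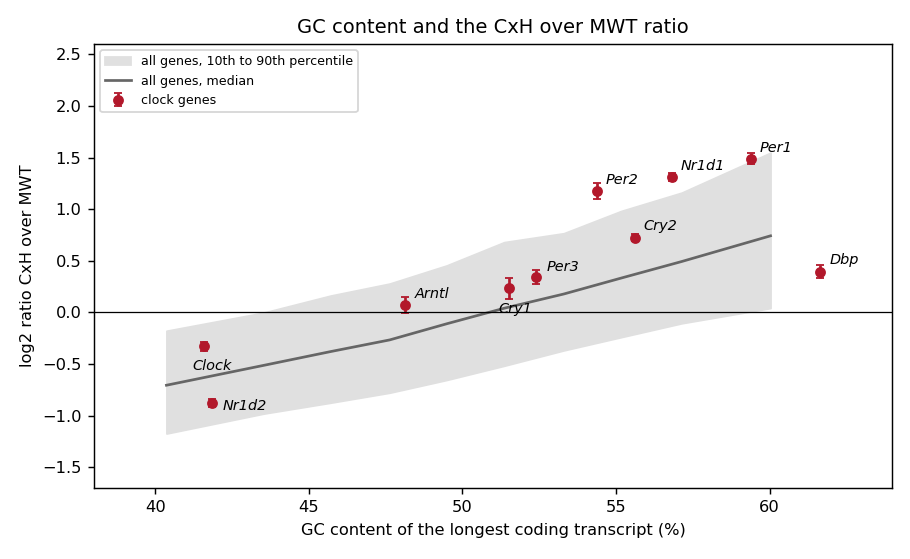
Log2 ratio of CxH over MWT against GC content of the longest protein-coding transcript for the 10 clock genes (points, bars of 1 SE) and for all genes in 10 bins of GC content (line, median, and shading, percentiles 10 to 90). Clock genes rich in GC lie at higher ratios, as do genes in general, and Per2, Nr1d1 and Per1 lie near or above the upper edge of the shading. An exception is Dbp, the richest of the 10 in GC, at 0.39, below the median of 0.74 in the highest bin.

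GC content moved with the ratios of the clock genes. The longest coding transcript was 41.6% GC in Clock and 41.8% in Nr1d2, 48.1% in Arntl, 51.5% in Cry1, 52.4% in Per3, 54.4% in Per2, 55.6% in Cry2, 56.8% in Nr1d1, 59.4% in Per1 and 61.65% in Dbp. Over all genes that reached 100 reads in each library, Spearman's rho between GC content and the log2 ratio was 0.685 for CxH over MWT, 0.627 for CxWT over MWT, 0.582 for CxH over MH and 0.163 for MH over CxWT. Over the 10 clock genes, which share the libraries, rho was 0.855 for CxH over MWT and 0.576 for MH over MWT. For CxH over MWT the 25% of genes lowest in GC had a median log2 ratio of -0.57 and the 25% highest in GC 0.56. A correction for GC content and length of the transcript, fitted over all these genes, was set beside every ratio of the 10 genes between libraries in the plot of log2 ratios.

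After the correction the difference between MH and MWT was smaller for the Period genes and Nr1d1 but remained past the threshold for Per1 (0.86), Per2 (1.04) and Nr1d1 (0.91), while Per3 went to 0.47. For CxWT over MWT none of the 3 calls was kept, with Per1 at 0.34, Per2 at 0.49 and Nr1d1 at 0.51. For CxH over MWT, Per2 (0.75) and Nr1d1 (0.83) remained past it, Per1 stood at 0.68 and Cry2 at 0.27. Nr1d2 shrank from -0.88 to -0.32 for CxH over MWT and from -0.55 to -0.25 for MH over MWT, and the REV-ERB genes no longer had opposite signs for CxH over MH (-0.082 for Nr1d1 and -0.068 for Nr1d2) or for CxWT over MWT (0.51 and 0.012). Dbp changed sign, from 0.089 to -0.44 for MH over MWT and from 0.39 to -0.40 for CxH over MWT. Arntl went from 0.40 to 0.58 for MH over MWT, and Clock from 0.060 to 0.23. The median of the 10 genes after the correction was 0.41 for MH over MWT, 0.28 for CxWT over MWT, 0.23 for CxH over MWT, 0.16 for MH over CxWT, -0.0078 for CxH over CxWT and -0.089 for CxH over MH. Set against Arntl, the corrected excess of CxH over MWT was 0.38 on the log2 scale for Per1, 0.45 for Per2 and 0.53 for Nr1d1, in place of 1.42, 1.11 and 1.24. CxH over MH then stood at 0.10 for Per1 against Arntl, under 2 SE of counting, at -0.0088 for Per2 and at 0.20 for Nr1d1. For Dbp against Arntl the order turned, with log2 ratios to MWT of -0.70 in CxH, -0.43 in CxWT and -1.02 in MH, so that MWT was the highest library. For Cry2 against Cry1 the excess of CxH over MWT went from 0.49 to 0.088 and that of MH over MWT from 0.56 to 0.23. CxWT over MWT went from -0.081 to -0.33, so the split of CxH and MH from CxWT and MWT no longer held.

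Among all 11010 genes that reached 100 reads in each library, the genes nearest to Per1 in pattern, by the Euclidean distance between centred log2 RPM over the 4 libraries, were Htr2a (0.0682), which codes for a serotonin receptor, Mtcl1 (0.0731) and Tnks1bp1 (0.112). Nearest to Per2 were Dbn1 (0.0375), the gene of the actin-binding protein drebrin, Nphp4 (0.0780) and Abcc8 (0.0861), and nearest to Nr1d1 were Trim46 (0.0406), Samd1 (0.0428) and Rapgef1 (0.0531). Cry2 lay closest to Coq8a (0.00732) and Nr1d2 to Ggps1 (0.00877). No clock gene was among the 3 nearest genes of another. Nr1d1 was the gene of rank 39 and Per2 of rank 47 in nearness to Per1, and to Per2 the ranks were 36 for Nr1d1 and 39 for Per1. With 4 libraries many genes share any pattern.

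**Figure D5:**
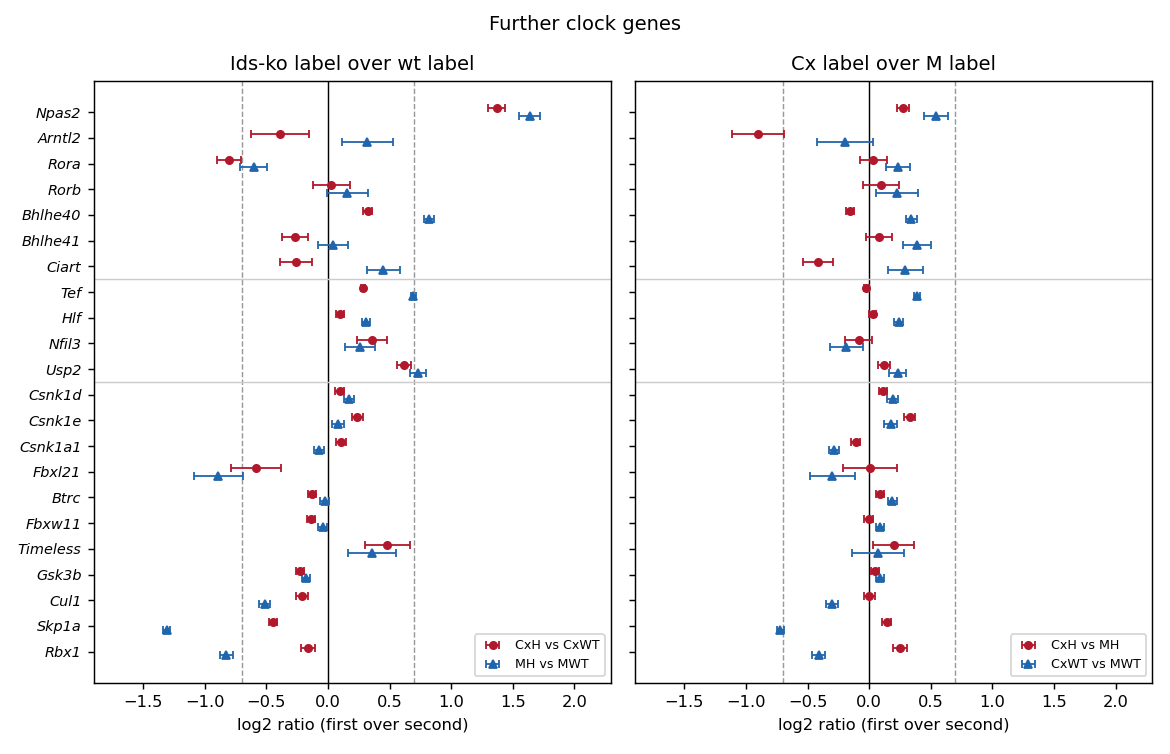
Log2 ratios of further clock genes, with bars of 1 SE from counting, for the pairs that differ in the genotype label (left) and those that differ in the area label (right). Lines across divide loop partners and inputs, output factors and genes for the turnover of PER and CRY, and dashed lines mark 0.7 in either direction. Npas2 stands apart at the right of the left panel and Skp1a at its left.

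The wider clock was read from 24 further genes, all of which were in the table. Of these, 3 were called for CxH against CxWT (1 higher, 2 lower), 6 for MH against MWT (3 higher, 3 lower), 1 for CxH against MH (lower), 1 for CxWT against MWT (lower), 4 for CxH against MWT (2 higher, 2 lower) and 3 for MH against CxWT (1 higher, 2 lower). As a share this was 25.0% for MH against MWT, as over all genes (25.0%). For the other pairs it was 12.5% for CxH against CxWT (20.9% of all genes), 4.17% for CxH against MH (3.50%), 4.17% for CxWT against MWT (7.54%), 16.7% for CxH against MWT (30.7%) and 12.5% for MH against CxWT (15.3%). Their median log2 ratio lay between -0.13 and 0.18 in all pairs. Of their 18 calls over all pairs, 8 were below the threshold after the correction for GC content and length. Over all genes the number of calls also fell under the correction in every pair. The fall was least for MH against CxWT, from 1943 to 1808, and as a share greatest for CxWT against MWT, from 958 to 395.

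Of the 8 loop partners and inputs, Npas2, a relative of Clock that can take its place beside ARNTL in the forebrain, differed most. It had 1794 reads (46.6 RPM) in CxH and 1439 (38.5) in MH, and 606 (18.0) in CxWT and 358 (12.4) in MWT. CxH and MH lay far above CxWT and MWT, with log2 ratios of 1.37 ± 0.068 for CxH over CxWT and 1.64 ± 0.085 for MH over MWT. The GC and length correction left 1.28 and 1.49. Bhlhe40, the gene of the E-box repressor DEC1, had 97.5 RPM in CxH and 108.6 in MH, and 78.1 in CxWT and 61.6 in MWT, and was called for MH over MWT (0.82 ± 0.041, corrected 0.91). Rora, whose receptor activates Arntl through the ROR element, was called lower for CxH against CxWT (-0.80 ± 0.098, corrected -0.46) and for MH against CxWT (-0.84 ± 0.099, corrected -0.81). Arntl2 was called lower for CxH against MH (-0.90 ± 0.21, 70 and 127 reads). Rorb, Bhlhe41 and Ciart were called in no pair.

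Of the 4 output factors, Usp2, the gene of a deubiquitinase under clock control, was called higher for MH over MWT (0.73 ± 0.064, corrected 0.53) and for CxH over MWT (0.85 ± 0.063, corrected 0.57). Tef, a relative of Dbp that binds the same D-box, had 14062 reads in CxH and 13858 in MH, 10087 in CxWT and 6641 in MWT, and a log2 ratio of 0.69 ± 0.022 for MH over MWT, just below the threshold. Hlf and Nfil3 were called in no pair. Of the 12 genes for the turnover of PER and CRY, Skp1a, a subunit of the ubiquitin ligases that mark them for degradation, had 96.7 RPM in CxH and 87.7 in MH, and 132.0 in CxWT and 217.6 in MWT. It was called lower for MH against MWT (-1.31 ± 0.031, corrected -0.84), CxH against MWT (-1.17 ± 0.030, corrected -0.60) and CxWT against MWT (-0.72 ± 0.028, corrected -0.38). Rbx1, another subunit of these ligases, was called lower for MH against MWT (-0.83 ± 0.056, corrected -0.41). Fbxl21 was called lower in the pairs MH and CxH against MWT, on at most 125 reads in a library, and had corrected ratios of -0.58 and -0.38. The casein kinase genes Csnk1d, Csnk1e and Csnk1a1, which set the speed of the clock, were called in no pair, and neither were Btrc, Fbxw11, Timeless, Gsk3b and Cul1.

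Several marker lists set CxH and MH apart from CxWT and MWT, and their part in the ratios of the clock genes was not tested. The 10 activity-induced genes, which respond to neuronal firing as Per1 can, summed to 932.0 RPM in CxH and 734.6 in MH, and to 197.4 in CxWT and 154.2 in MWT. Of these, 9 were called higher for CxH over CxWT (9.46% of all genes) and 8 for MH over MWT (12.3% of all genes), with Arc at 384.8 RPM in CxH and 280.2 in MH, and 52.8 in CxWT and 35.5 in MWT. The 8 glucocorticoid-induced genes, Per1 among them, did not follow that course as a list, with sums of 353.7 RPM in CxH and 395.3 in MH, and 419.4 in CxWT and 310.2 in MWT. For CxH against CxWT 1 of the 8 was called higher and 2 lower, where 9.46% and 11.5% of all genes were, and for MH against MWT 3 were called higher, where 12.3% of all genes were. Its members differed among themselves, and the examples that follow were chosen after their values were seen. Tsc22d3 had 75.2 RPM in CxH and 100.3 in MH, and 156.4 in CxWT and 115.4 in MWT. Zbtb16 had 24.7 RPM in CxH and 25.8 in MH, and 14.2 in CxWT and 6.53 in MWT. The 7 striatal markers summed to 934.1 RPM in CxH and 756.2 in MH, and to 349.7 in CxWT and 345.1 in MWT. Cortical excitatory neuron markers were called higher for 10 of 11 genes in CxH over CxWT and in MH over MWT, and the 10 midbrain and diencephalon markers were all called lower in both.

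Of 10 markers of the suprachiasmatic nucleus, 7 were in the table, and they summed to 45.4 RPM in CxH and 55.0 in MH, and to 117.1 in CxWT and 82.3 in MWT. Avp, a peptide gene of this nucleus and of other hypothalamic nuclei, had 3 reads in CxH and 7 in MH, and 503 in CxWT and 276 in MWT. Lhx1, a transcription factor gene of the same nucleus, had 4 reads in CxH and 4 in MH, and 109 in CxWT and 56 in MWT. Both genes were thus near the floor of 3 reads in the libraries labelled CxH and MH and well above it in those labelled CxWT and MWT. Six3, Rgs16, Vipr2 and Prokr2 were not near the floor there, with at least 72 reads. For CxH against CxWT 1 of the 7 was called higher and 6 lower, where 9.46% and 11.5% of all genes were. For MH against MWT 1 was called higher and 5 lower, where 12.3% and 12.7% of all genes were. Vip, which cortical interneurons express as well, had 800 reads in CxH and 1014 in MH, and 219 in CxWT and 179 in MWT. The astrocyte markers summed to 2493 RPM in CxH and 1958 in MH, and to 1636 in CxWT and 2154 in MWT. They did not share an order. Slc1a2, the largest part of the sum, had 1533 RPM in CxH and 1340 in MH, and 858.6 in CxWT and 997.2 in MWT. Aqp4 had 135.9 in CxH and 143.1 in MH, and 236.7 in CxWT and 353.1 in MWT. Gja1 was also higher in CxWT and MWT, and Gfap was highest in CxH and MWT. The microglia markers summed to 291.8 RPM in CxH and 168.9 in MH, and to 144.9 in CxWT and 247.3 in MWT. C1qa was the largest part of this sum, with 63.5 RPM in MH and 128.3 in MWT. Cx3cr1 (58.7 and 57.7) and P2ry12 (37.5 and 36.5) hardly differed between MH and MWT. Oligodendrocyte markers, at 4526 RPM in CxH and 4694 in MH, and 8667 in CxWT and 6891 in MWT, were higher in the libraries labelled wt.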

How the data were processed

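A single RNA-seq library was made from pooled polyA RNA for each condition and run on a SOLiD 3 Plus instrument. The authors aligned reads to NCBI37/mm9 with PASS and deposited, without normalization, counts of reads aligned to a single gene, keeping genes whose reads covered more than 50% of the gene. The annotation and the use of strand are not given in the sources used here.

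Counts were scaled by the aligned reads the study gives for each library, to RPM, and by length to RPKM. A count of 0 was set to 1 for ratios. All 12700 genes were tested with a Poisson likelihood ratio test, and 12690 matched a RefSeq symbol by Entrez identifier. Positions, GC content and length came from GENCODE vM1, for 12354 genes, and cubic terms of GC content and log10 length were fitted over 10813 genes that reached 100 reads in each library. The floor of 3 reads was between 0.0779 RPM (CxH) and 0.104 RPM (MWT). Members, lists (24 further clock genes, activity-induced and glucocorticoid-induced genes, cell and area markers) and tests were chosen with earlier results of these data known. Genes named are all 10 members, Ids, genes of these lists and the 3 genes nearest in pattern. Most genes of the marker lists, and a few of the further clock genes, are not reported here by name, though they entered the counts. The overlapping genes Thra and Sphk2 were named after their values were seen. Alternatives were other scalings, a filter of 100 reads, a threshold of 1, Benjamini-Hochberg adjustment, edgeR's exact test with an assumed variation of 0.1 or 0.2, 0.5 added to counts, and the GC and length correction. Steps were tested on simulated data. Tools were R 4.3.3 with DESeq2 1.42.0 and edgeR 4.0.16, and scipy 1.17.1, pandas 2.3.3 and numpy 2.4.6 in Python 3.11.15.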

Additional observations from a re-analysis of the deposited data

Results flagged for a closer look

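4 results stood out because the same contrast gave opposite signs under the other label, each beyond 2 SE of counting with aligned reads as scaling. Per2 had a log2 ratio of -0.22 for CxH over MH and 0.73 for CxWT over MWT. Per3 had -0.17 for CxH over CxWT and 0.72 for MH over MWT, and -0.37 for CxH over MH and 0.52 for CxWT over MWT. Clock had -0.39 for CxH over MH and 0.091 for CxWT over MWT. Some of these rest on the scaling, since Clock for CxWT over MWT was -0.00049 under column totals and 0.042 under TMM factors, and Per3 for CxH over CxWT was -0.078 under TMM factors. With 1 library per condition the difference between the contrasts was not tested beyond counting error. By counting error alone the difference of the 2 genotype ratios (Cx minus M) was -0.89 ± 0.088 for Per3, -0.96 ± 0.10 for Per2, -0.84 ± 0.068 for Per1 and 0.066 ± 0.086 for Dbp. In M the knock-out label and the Ids reads point in opposite directions.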

How the results depend on the processing

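Counts of called clock genes depended on scaling where ratios lay near the threshold. Under TMM factors or DESeq2 size factors the count for CxH against CxWT went from 0 to 1 (Per1) and that for MH against CxWT from 0 to 2 (Per1 and Per2). The count for CxWT against MWT went from 3 to 2, without Per2, and that for MH against MWT from 4 to 5, with Cry2. Under column totals of the counts it was 1 (Per1) for MH against CxWT and 1 (Per1) in place of 3 for CxWT against MWT. A log2 threshold of 1 left 0 for CxWT against MWT and 3 in place of 5 for CxH against MWT. An assumed variation of 0.2 left 1 (Per1) for CxWT against MWT. The GC and length correction left 0 for CxWT against MWT and 2 (Per2 and Nr1d1) for CxH against MWT. For MH against MWT the count stayed between 3 and 5, with Per1, Per2 and Nr1d1 called under every alternative, and for CxH against MH it was 0 under every alternative. No called ratio changed sign. Of the 60 ratios, 10 changed sign under the correction, 5 under column totals, 2 under TMM and 2 under DESeq2 factors.

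Over all genes, a threshold of 1 took the calls from 2658 to 1401 (CxH against CxWT), 3170 to 1642 (MH against MWT), 444 to 143 (CxH against MH), 958 to 295 (CxWT against MWT), 3895 to 1961 (CxH against MWT) and 1943 to 1064 (MH against CxWT). An assumed variation of 0.2 left 191 for CxH against MH and 487 for CxWT against MWT, and the correction 395 for CxWT against MWT and 2020 for CxH against MWT. The share of calls that were higher moved under TMM from 45.2% to 56.0% for CxH against CxWT and from 41.9% to 54.2% for MH against CxWT. Under column totals it moved from 69.6% to 58.4% (CxH against MH), 72.0% to 55.2% (CxWT against MWT) and 50.8% to 39.1% (CxH against MWT). Column totals shifted the median of all genes by -0.11 for CxH over MWT, and TMM factors by 0.11 for MH over CxWT. No paired analysis was possible because the labels give no replicate numbers and each condition has 1 library, so no replicate could be left out either. All clock genes had at least 328 reads in every library, though some steps between libraries, as for Cry1, were within 2 SE of counting. Lower depth was not tested.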
